A study of Mus musculus with 4 samples.

Results

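The V genes of the immunoglobulin kappa light chain, whose symbols start with Igkv, were taken from the deposited table by symbol, which gave 160 of the 55401 genes listed. They were grouped into 20 V families by the number before the first hyphen of the symbol, so that Igkv6-15 belongs to family 6. RNA was sequenced from B220+ B cells sorted from the spleens of C57BL/6J mice, in 2 NSD1B WT libraries (Mb1-Cre+ NSD1+/+) and 2 NSD1B KO libraries (Mb1-Cre+ NSD1fl/fl). NSD1 methylates lysine 36 of histone H3, and Mb1-Cre, which both genotypes carry, deletes floxed exons in the B lineage from its early stages. The mice were young adults of both sexes, and whether replicate libraries came from separate mice is not stated in the Methods, so that p-values measure the spread between these libraries, which may be technical. B220 is the form of CD45 that most mouse B cells carry.

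A kappa light chain is made when a developing B cell joins 1 Igkv gene to 1 of the Igkj segments, after which the joined exon is spliced to the constant exon Igkc. Because a mature B cell normally expresses the product of a single joined V gene, the Igkv transcripts of a B cell population reflect which V genes its cells chose, weighted by how much light chain RNA each cell holds. The Igkv genes lie on both strands, and a V gene joins either by deletion of the DNA between it and Igkj or by its inversion. Cells can also join a second time, from a V gene farther out to an Igkj segment farther in, which is known as receptor editing. In these bulk samples fewer cells with a V gene and less RNA per cell cannot be told apart.

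In the GENCODE M21 annotation of mm10 (GRCm38), all 160 genes lay on chromosome 6 between 67555497 and 70704177, a span of 3148.681 kb. Igkj1 followed at 70722562 to 70722599 and Igkc at 70726435 to 70726966. The annotation gave 100 of the genes as V genes and 60 as V pseudogenes, and 75 were on the strand of the Igkj segments and 85 on the opposite strand. The germline end of the V exon codes for the first part of CDR3, the loop that spans the V-J joint. The last 60 nt of the annotated transcript are shown for the genes on which the results turn, on the strand of the gene, with capitals from the codon of the conserved cysteine to the end. The first 4 sequences belong to genes that were higher in NSD1B KO, the next 5 to genes that were lower or at 0 counts there, and the last 2 to the closest copies of genes at 0.
Igkv4-91: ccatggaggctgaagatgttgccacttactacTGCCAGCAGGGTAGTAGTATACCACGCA
Igkv8-30: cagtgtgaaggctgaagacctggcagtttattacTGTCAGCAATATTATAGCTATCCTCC
Igkv13-85: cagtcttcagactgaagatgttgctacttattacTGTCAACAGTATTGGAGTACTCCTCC
Igkv10-95: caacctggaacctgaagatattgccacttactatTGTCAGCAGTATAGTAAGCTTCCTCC
Igkv6-15: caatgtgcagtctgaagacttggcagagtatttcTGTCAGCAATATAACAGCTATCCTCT
Igkv6-23: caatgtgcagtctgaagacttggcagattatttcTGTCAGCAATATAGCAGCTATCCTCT
Igkv14-126: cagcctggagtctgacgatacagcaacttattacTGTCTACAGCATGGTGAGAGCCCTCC
Igkv6-20: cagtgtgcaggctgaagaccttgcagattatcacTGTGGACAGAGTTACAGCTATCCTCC
Igkv17-127: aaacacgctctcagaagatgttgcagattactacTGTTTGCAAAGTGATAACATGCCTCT
Igkv6-29: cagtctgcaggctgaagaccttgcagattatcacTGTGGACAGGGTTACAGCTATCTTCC
Igkv17-121: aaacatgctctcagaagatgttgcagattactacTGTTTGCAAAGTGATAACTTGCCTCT
Over their last 270 nt, Igkv6-20 and Igkv6-29 differed at 5 positions (98.1% identity) and Igkv17-127 and Igkv17-121 at 6 (97.8%). Igkv6-15 and Igkv6-23 shared 94.4% of these positions, and Igkv6-15 and Igkv6-20 83.7%. Reads that were not unique were listed apart from the genes, and how the counting split other reads between close copies is not given, so the counts of such copies are uncertain between them.

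The libraries held 6769118 to 7566834 counts on genes. The B cell markers Cd79a, Cd79b, Ms4a1 and Ptprc were counted in every library, with a summed level of 12259 to 12493 CPM (counts scaled to a common library size by the TMM method) in NSD1B WT and 10870 to 11869.5 in NSD1B KO, and 3 of the 4 were lower in NSD1B KO. Nsd1 had 497 and 480 counts in NSD1B WT and 284 and 280 in NSD1B KO, and fell by 0.74 on the log2 scale. Markers of other cells also differed between the genotypes. The erythroid genes Hba-a1 and Hbb-bs, both higher, summed to 23.4 to 25.7 CPM in NSD1B WT and 1241 to 1496 in NSD1B KO, and of 3 myeloid genes 2 were higher (Csf1r, Lyz2) and 1 was lower (Itgam), with sums of 4512 to 4619 and 5635 to 5974 CPM. Of 4 T cell genes Cd3d was higher, Cd3e was not tested, and Cd4 and Cd8a had no counts, the sums being 7.65 to 9.37 and 14.8 to 16.1 CPM. Their part in the results was not tested, but none of these genes enters the shares below, which are taken within Igkv counts.

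The Igkv genes together were higher in NSD1B KO. They held 64118 and 69872 counts in NSD1B WT and 93761 and 87803 in NSD1B KO, or 0.922%, 0.979%, 1.24% and 1.30% of the counts on genes, so the genotypes did not overlap. As a level this was 9255 ± 413 CPM in NSD1B WT and 13025 ± 15.8 in NSD1B KO (mean ± SD, n = 2 libraries). On the log2 scale they were higher by 0.52 (SE, standard error of the fit, 0.06; adjusted p = 1.57e-10 by the quasi-likelihood test of edgeR with the Benjamini-Hochberg method, which is behind each adjusted p below). The V genes of the other light chain, lambda, moved the same way, with a log2 fold change of 0.65 (SE 0.06) for the sum of Iglv1, Iglv2 and Iglv3. The V genes of the heavy chain, summed over 185 Ighv genes, fell by 1.06 (SE 0.07). Their counts were 2793 and 3067 in NSD1B WT and 1369 and 1290 in NSD1B KO, far under those of Igkv. The ratio of Igkv to Iglv counts was 1.01 and 0.978 in NSD1B WT and 0.952 and 0.866 in NSD1B KO. How V counts of different chains relate to the numbers of cells that use them was not tested.

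The plasma cells of the spleen hold far more light chain RNA per cell than other B cells, and their markers did not move together. Prdm1, a transcription factor of plasma cells, was higher at 17 and 21 counts in NSD1B WT against 59 and 52 in NSD1B KO, and Irf4, which acts with it, was higher by 0.32 on the log2 scale. Jchain, which links antibody chains into polymers, fell by 0.54 and Xbp1, a secretory factor, by 0.27. Sdc1, the marker CD138, had no counts in any library. The 5 plasma cell genes summed to 267 to 273 CPM in NSD1B WT and 230 CPM in both NSD1B KO libraries, and their part in the Igkv level was not tested.

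A count was found for 102 of the 160 Igkv genes in at least 1 library, and 58 had none. The NSD1B WT libraries counted 95 genes each, while the NSD1B KO libraries counted 71 and 75 although they held more Igkv counts. The filter on low counts left 95 genes to test, and a gene counted in a single genotype passed it through that genotype. A gene was called where its fold change exceeded 1.2 at an adjusted p under 0.05. By this rule 37 Igkv genes were higher in NSD1B KO, 54 were lower and 4 were not called, where 37.1% of all tested genes were called higher, 41.1% lower and 78.2% in either direction. The median log2 fold change was -1.42 over the tested Igkv genes and -0.10 over all tested genes. CPM did not overlap between the genotypes for 93 of the 95, and for 88.1% of all tested genes.

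With the total of Igkv counts as the library size, so that the test compared shares of Igkv counts, 32 Igkv genes were higher, 58 lower and 5 not called. On that scale 26.8% of all tested genes were called higher, 55.1% lower and 82.0% in either direction, and the median of all genes moved to -0.59. The same direction was called on both scales for 32 genes that were higher and 54 that were lower. The shares of a gene in the libraries of a genotype lay close together, as the plot of shares in pairs of libraries shows. Libraries of the same genotype had 97.8% (NSD1B WT) and 97.7% (NSD1B KO) of their Igkv usage in common, taken as the sum over genes of the smaller share, and libraries of different genotypes 51.1% to 51.7%. Summed by family, these values were 98.8% and 98.6% within a genotype and 69.4% to 70.2% between genotypes. Each pair of the same genotype thus had more in common than each pair of different genotypes.

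**Figure D1:**
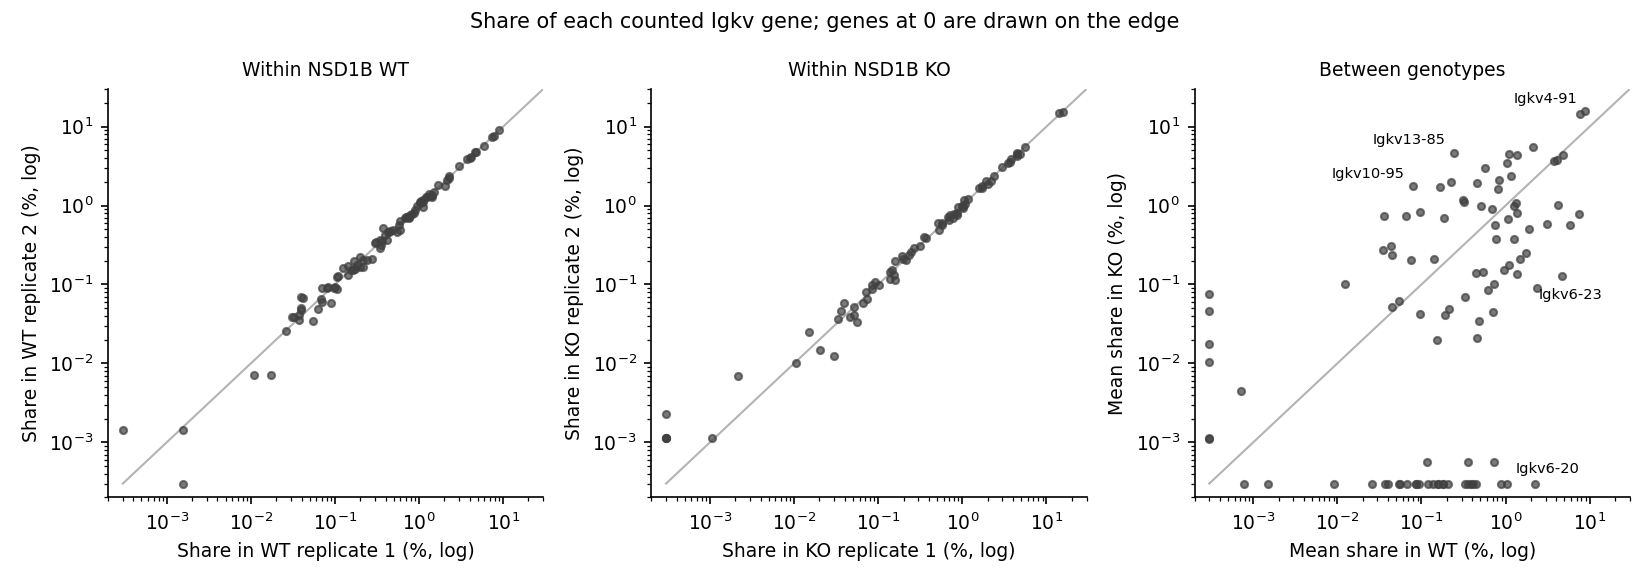
Share of Igkv counts (%, log axes) of each counted gene in NSD1B WT replicate 2 against replicate 1, in NSD1B KO replicate 2 against replicate 1, and as means of 2 libraries in NSD1B KO against NSD1B WT, with genes at 0 drawn on the edge. Points follow the diagonal within each genotype and scatter widely between genotypes, where Igkv13-85 and Igkv10-95 lie above the diagonal and Igkv6-23 below it.

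By gene, Igkv usage was less even in NSD1B KO. The inverse Simpson number, the count of equally used genes that would give the same concentration, was 26.2 in both NSD1B WT libraries and 15.3 in both NSD1B KO libraries. Taken over families it was 7.47 and 7.39 in NSD1B WT and 7.67 and 7.74 in NSD1B KO, so the loss of evenness was not seen between families. The most used genes reached 50% of the Igkv counts with 9 genes in each NSD1B WT library and 7 in each NSD1B KO library, and 90% with 41 and 28 genes. The 10 most used genes held 54.3% and 54.5% in NSD1B WT and 64.5% and 64.3% in NSD1B KO. Ranked by mean share, the genotypes had 5 of their 10 most used genes in common. A mean share of at least 1% was held by 28 genes in NSD1B WT and 22 in NSD1B KO, of which 12 were the same, or 42.9% and 54.5% of these lists.

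**Figure D2:**
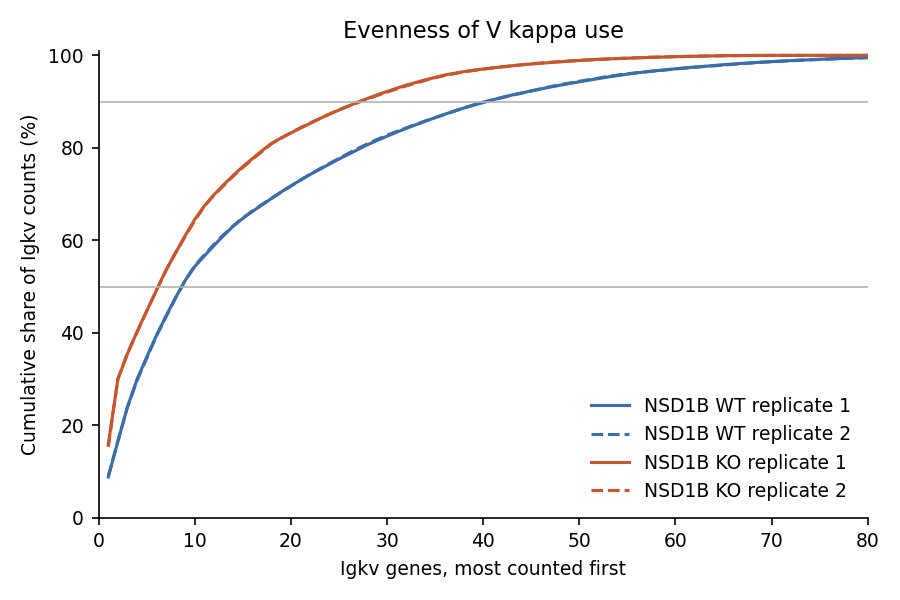
Cumulative share of Igkv counts (%) over genes ordered from the most to the least counted, with a line for each of the 4 libraries and grey lines at 50% and 90%. The curves of NSD1B KO rise faster, crossing 90% at 28 genes against 41 in NSD1B WT, and the curves of the same genotype lie on each other.

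The most used gene was Igkv4-91 (chromosome 6, 68768555 to 68769103, minus strand), a family 4 gene found in antibodies of B1 cells to phosphatidylcholine. It held 5664 and 6255 counts in NSD1B WT and 14905 and 13474 in NSD1B KO. Its share rose from 8.83% and 8.95% of Igkv counts to 15.9% and 15.3%, with a log2 fold change of 1.31 (SE 0.08, adjusted p = 2.1e-20). It was followed in both genotypes by Igkv8-30 (70117061 to 70117620), with 4955 and 5309 counts in NSD1B WT and 13171 and 12944 in NSD1B KO. The share of Igkv8-30 was 7.66% ± 0.092 and 14.4% ± 0.49 (SD, n = 2), and its log2 fold change 1.40 (SE 0.08). Together these 2 genes held 16.6% of Igkv counts in both NSD1B WT libraries and 29.9% and 30.1% in NSD1B KO. No window of 100 nt of either was found in another Igkv gene.

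Other V genes found in B1 cell antibodies did not follow Igkv4-91. Igkv14-126 (67896172 to 67896642), used by antibodies to phosphatidylcholine, was the fourth most used gene in NSD1B WT, with 3817 and 4030 counts, and had 543 and 496 in NSD1B KO. Its share fell from 5.86% ± 0.13 to 0.572% ± 0.01 (log2 fold change -2.86, SE 0.09, adjusted p = 4.28e-31). Igkv7-33, which joins heavy chains of antibodies to phosphorylcholine, had 40 and 34 counts in NSD1B WT and 0 in both NSD1B KO libraries. Against a limit of 3 counts over NSD1B KO, this was at least 23.8-fold lower.

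Several genes of low or moderate use in NSD1B WT rose to the front in NSD1B KO. Igkv13-85 (68930269 to 68930734) had 179 and 147 counts in NSD1B WT and 4503 and 3994 in NSD1B KO, and went from rank 56 to rank 4 by mean share. Its log2 fold change was 4.76 (SE 0.10, adjusted p = 5.13e-37). Its neighbour Igkv13-84, which is 97.0% identical to it over the compared bases, was also higher (223, 200, 970 and 1042 counts). Of the windows of 100 nt of Igkv13-85, 37.9% were found in another Igkv gene, so the counts of the 2 copies are uncertain between them. Igkv10-95 (68680379 to 68680848) had the largest log2 fold change among the genes named by rule that were counted in all libraries, 4.93 (SE 0.13), with 45 and 63 counts against 1608 and 1563. Igkv4-79, at 21 and 27 counts against 662 and 673, followed with 4.85 (SE 0.17). Igkv4-80 (45, 42, 735 and 610 counts) and Igkv4-86 (111, 111, 1607 and 1478 counts) were also higher, the latter by 3.85. Igkv19-93, the 1 member of its family, had 676 and 799 counts in NSD1B WT and 4141 and 4040 in NSD1B KO, a share of 1.10% ± 0.063 and 4.51% ± 0.13. Igkv1-135 rose from 1.35% ± 0.078 to 4.43% ± 0.024 of Igkv counts, and Igkv10-96 from 2.14% ± 0.022 to 5.53% ± 0.032. For each of these genes the NSD1B KO libraries were both above the NSD1B WT libraries. Most of them were named for the size of their rise, so this was largely set by the choice. Over all tested genes, CPM did not overlap between the genotypes for 88.1%.

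The opposite was seen for some genes of high use in NSD1B WT, which were named for their large falls in share. Igkv6-15 (70406469 to 70406992), the third most used gene there, had 4791 and 5183 counts against 748 and 684, and its share fell from 7.45% ± 0.038 to 0.788% ± 0.013 (log2 fold change -2.75, SE 0.08). Igkv6-23 (70260409 to 70260955) had 2970 and 3350 counts against 130 and 102, and fell by 4.71 (SE 0.11, adjusted p = 3.83e-36). Igkv8-19 went from 4.19% ± 0.013 of Igkv counts to 1.01% ± 0.018, and Igkv8-24 from 3.09% ± 0.088 to 0.586% ± 0.011. Both were lower, by log2 fold changes of -1.55 and -1.91.

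A middle class of well used genes kept about the same share. Igkv1-110 held 4.79% and 4.75% of Igkv counts in NSD1B WT and 4.43% and 4.26% in NSD1B KO. Igkv1-117 held 4.03%, 4.06%, 3.75% and 3.85%, and Igkv8-27 held 3.68%, 3.85%, 3.72% and 3.53%, where the genotypes overlapped. As levels these 3 genes were called higher, by 0.36, 0.40 and 0.44 on the log2 scale, less than the Igkv total. On the share scale their log2 fold changes were -0.13, -0.09 and -0.05 and none was called.

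Genes at 0 counts in both NSD1B KO libraries were taken as a group, although no gap set them apart. Igkv4-68 (466, 499, 0 and 1 counts), Igkv5-39 (232, 248, 0 and 1) and Igkv1-133 (67, 88, 0 and 1) came near it. Of the 87 Igkv genes with at least 50 counts summed over NSD1B WT, 22 (25.3%) had 0 in both NSD1B KO libraries, where 11.1% of all genes with that many counts did. These 22 genes held 7.69% and 7.76% of the Igkv counts in NSD1B WT. The highest was Igkv6-20 (70335841 to 70336507), with 1438 and 1546 counts in NSD1B WT, at least 958-fold lower against the limit of 3 counts over NSD1B KO. Igkv17-127 (67861153 to 67861659; 659 and 751 counts) was at least 453-fold lower and Igkv6-13 (567 and 620 counts) at least 381-fold. Igkv4-57-1 (272 and 324 counts) and Igkv3-12 (250 and 296 counts) were at least 191-fold and 175-fold lower. Of the 22 genes, 10 belonged to family 4, 4 were annotated as pseudogenes and 12 shared no window of 100 nt with another Igkv gene. They lay all along the locus, with 5 in its distal, 9 in its middle and 8 in its proximal block of genes, as defined below. Since reads were aligned to a reference made from C57BL/6J mice, a 0 here means that no counted read was assigned to that reference gene. The Methods give a C57BL/6J background for all mice of the study. Whether chromosome 6 of the floxed line is of that strain throughout was not tested, so the limits on fold changes hold for counts on the reference genes.

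The copies of these genes differed in what they showed. Igkv6-29, the closest copy of Igkv6-20, had 17 and 18 counts in NSD1B WT and also 0 in NSD1B KO, so the pair was absent from the counts as a whole. Igkv17-121, the closest copy of Igkv17-127, had 351 and 323 counts in NSD1B WT and 921 and 855 in NSD1B KO, and was higher by 1.45 (SE 0.10). The sum of family 17, which holds both, had 1010 and 1074 counts against 921 and 855 and was not called (log2 fold change -0.15, adjusted p = 0.0659). On the share scale the family was lower (-0.67, adjusted p = 8.24e-09), with a mean share of 1.56% in NSD1B WT and 0.978% in NSD1B KO. For Igkv17-127, 16.9% of the windows of 100 nt of its transcript were found in another Igkv gene. Fewer genes went the other way, as 2 of the 65 Igkv genes with at least 50 counts over NSD1B KO had 0 in NSD1B WT, against 7.93% of all genes. These were Igkv4-90 (48 and 36 counts, at least 29.1-fold higher) and Igkv13-78-1 (67 and 70 counts, at least 47.4-fold higher).

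By family, 11 were higher in NSD1B KO, 7 were lower, family 17 was not called and family 18 had no counts. With families in place of genes, 37.8% of all tested rows were called higher and 40.4% lower. On the share scale 9 families were higher, 8 lower, and families 8 and 20 were not called, where 26.8% of all rows were higher, 55.0% lower and 81.8% called in either direction. Family 6 changed its share most, from 16.3% and 16.4% of Igkv counts in NSD1B WT to 2.19% and 2.20% in NSD1B KO, with a log2 fold change of -2.38 (SE 0.07, adjusted p = 2.02e-29). Of its 9 tested genes 8 were lower, among them Igkv6-15, Igkv6-23 and Igkv6-20. The exception was Igkv6-32 (191, 232, 1092 and 1070 counts), which was higher by 2.41 (SE 0.11) and made up over 50% of the family in NSD1B KO. Without Igkv6-32, family 6 held 16.0% and 16.1% in NSD1B WT and 1.02% and 0.982% in NSD1B KO.

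Families 3, 5, 9 and 14 were lower as well. Family 3 went from 7.37% and 7.72% to 2.41% and 2.62% (log2 fold change -1.07, SE 0.07), and 5 of its 7 tested genes were lower. The other genes of family 3, Igkv3-2 (532, 549, 1489 and 1484 counts) and Igkv3-1 (79, 113, 182 and 199 counts), are the V genes nearest to Igkj1 and were higher by 1.51 and 1.05. Family 5 was lower in 4 of 4 tested genes and went from 1.81% ± 0.053 to 0.451% ± 0.04. Of all tested genes, 37.1% were higher and 41.1% lower. Family 14 went from 8.38% ± 0.15 to 3.88% ± 0.093, with Igkv14-126 lower and Igkv14-111 (724, 816, 2261 and 2099 counts) higher by 1.56. Family 9 went from 2.17% ± 0.0056 to 1.09% ± 0.062. Family 11 was lower by a log2 fold change of -1.13 with 105 and 113 counts against 48 and 46, and family 7 is the single gene Igkv7-33.

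Among the families that were higher, family 13 went from 410 and 352 counts in NSD1B WT to 5540 and 5106 in NSD1B KO, and its share from 0.639% and 0.504% to 5.91% and 5.82%. Its log2 fold change was 3.88 (SE 0.08, adjusted p = 3.03e-34). Each of its 3 tested genes was higher, where 37.1% of all tested genes were. All 3 genes of family 10 were higher too, and the family went from 2.47% and 2.42% to 9.20% and 9.35% (log2 fold change 2.44, SE 0.07). Families 15 and 19, counted through a single gene each, were higher by 2.58 and 2.55, and family 2 went from 1.48% ± 0.017 to 3.59% ± 0.19. Families 1 and 12 rose less, from 10.9% ± 0.096 to 13.4% ± 0.015 and from 5.90% ± 0.43 to 7.49% ± 0.15, with as many genes called higher as lower in each. Family 16 was higher by 0.93. Family 20 (27, 47, 61 and 51 counts) overlapped in share and passed with a log2 fold change of 0.67 (adjusted p = 0.0413), a call that was lost in 9 of its alternatives. These include leaving out NSD1B WT replicate 1 (0.35, adjusted p = 0.42) or NSD1B KO replicate 1 (0.56, adjusted p = 0.144), the replicate block (adjusted p = 0.0581), and the tests of DESeq2 (adjusted p = 0.17) and limma-voom (adjusted p = 0.0879).

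**Figure D3:**
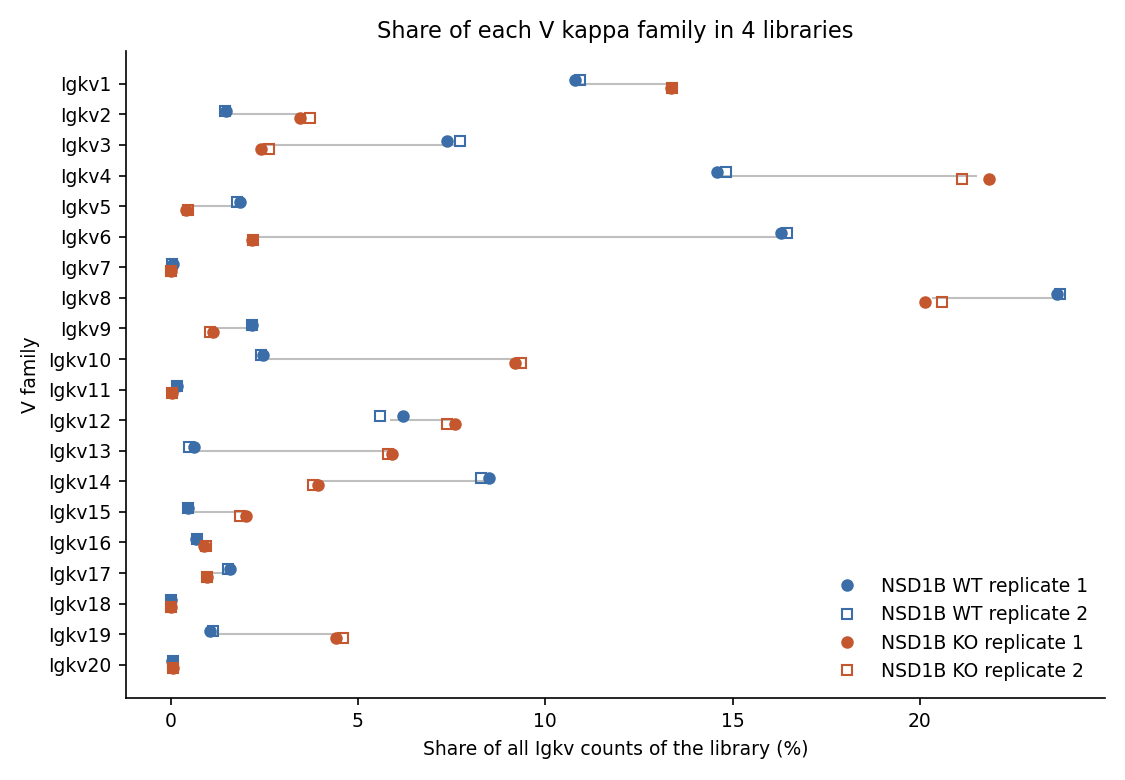
Share of all Igkv counts (%) of each V family in the 4 libraries, with filled circles for replicate 1, open squares for replicate 2 and a grey line between the means of the genotypes. Family 6 falls from 16.4% to 2.19%, families 4, 10 and 13 rise, and replicates lie close together in nearly all families.

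Families 4 and 8 combined opposite changes. Family 8, the most used in NSD1B WT, held 23.7% of Igkv counts in both libraries there and 20.1% and 20.6% in NSD1B KO. As a level it was called higher (log2 fold change 0.30, SE 0.06), but not without NSD1B WT replicate 1 (0.26), with library size alone (0.20), with upper quartile scaling or a filter of 1 CPM in all 4 libraries (0.24 each), or on the share scale (-0.22, adjusted p = 0.0272). Of its 9 tested genes 7 were lower, and Igkv8-30 and Igkv8-27 were higher, against 41.1% lower and 37.1% higher over all tested genes. Those 7 and the 3 genes of the family that were not tested held 12.3% ± 0.043 in NSD1B WT and 2.34% ± 0.047 in NSD1B KO. Family 4, the largest with 33 genes, rose from 14.6% and 14.8% to 21.8% and 21.1% (log2 fold change 1.06, SE 0.06), while 15 of its 25 tested genes were lower and 9 higher. Without Igkv4-91 its share was 5.81% ± 0.091 and 5.86% ± 0.12.

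The split of family 4 followed the order of the genes on the chromosome. From Igkv4-92 to Igkv4-77, all 8 tested family 4 genes were higher, and their share went from 9.34% ± 0.072 to 20.2% ± 0.48. From Igkv4-74 to Igkv4-50, 15 of 17 were lower, Igkv4-61 was higher and Igkv4-59 was not called, and the share went from 5.36% ± 0.10 to 1.26% ± 0.026. Of all tested genes, 37.1% were higher and 41.1% lower. The border was chosen after the values were seen. Igkv4-77 (25, 33, 292 and 271 counts) and Igkv4-74 (100, 106, 14 and 22 counts) are the tested genes on either side of it.

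The locus as a whole was divided by gene order into a distal block of 53 genes (Igkv2-137 to Igkv2-93-1), a middle block of 54 (Igkv19-93 to Igkv4-53) and a proximal block of 53 (Igkv4-51 to Igkv3-1), the last being nearest to Igkj1. The proximal block held 53.8% and 53.9% of Igkv counts in NSD1B WT and 27.1% and 27.8% in NSD1B KO. The middle block held 17.2% and 17.3% against 36.3% and 35.7%, and the distal block 29.0% and 28.8% against 36.6% and 36.5%. Replicates differed by less than 1 percentage point throughout. As levels, the proximal block was lower (log2 fold change -0.46, SE 0.06, adjusted p = 1.16e-08), and the middle and distal blocks were higher, by 1.58 and 0.86 (SEs 0.06). The same directions were called on the share scale, at -0.97, 1.06 and 0.34. Called rows made up 78.2% of all those tested in this fit.

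**Figure D4:**
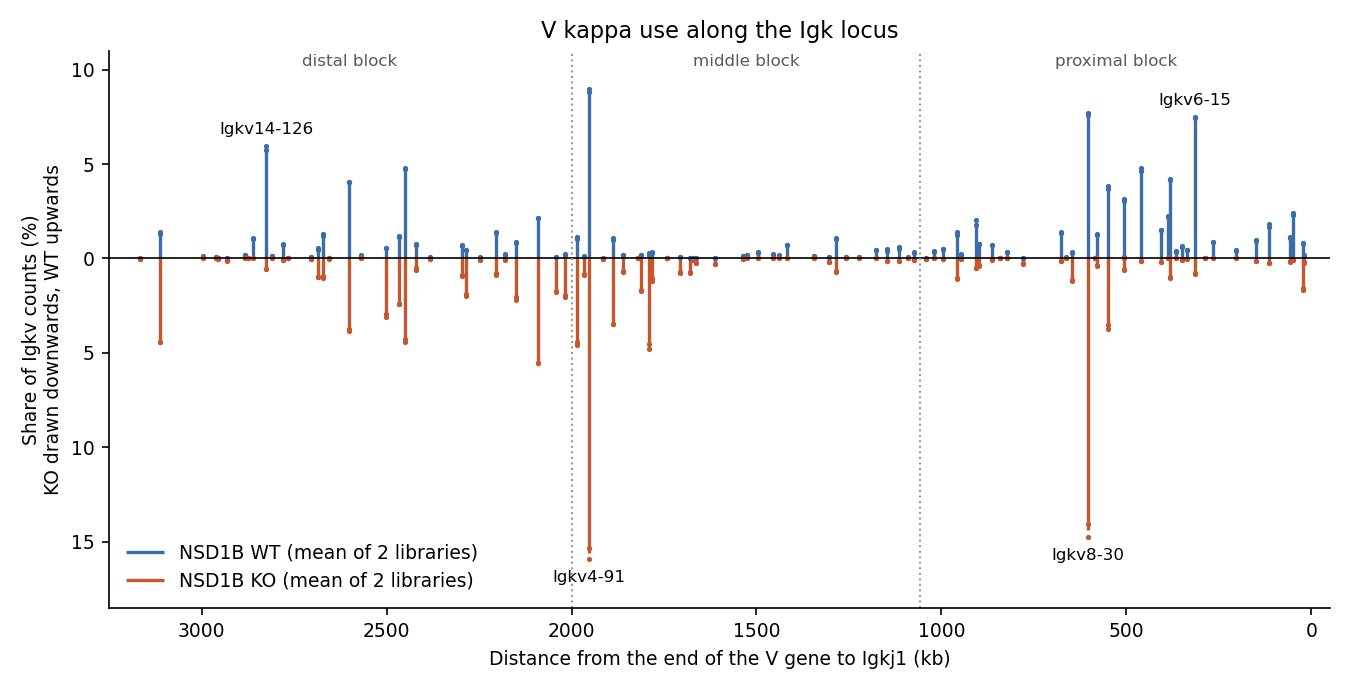
Share of Igkv counts (%) of each counted gene by its distance to Igkj1 (kb), with bars for the mean of 2 libraries, dots for each library, NSD1B WT drawn upwards and NSD1B KO downwards, and dotted lines between the blocks. Bars within the proximal block are taller in NSD1B WT apart from Igkv8-30 and a few others, and those around Igkv4-91 are taller in NSD1B KO.

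By gene, 6 of the 36 tested genes of the proximal block were higher and 29 lower, against 15 and 14 of 30 in the middle block and 16 and 11 of 29 in the distal block. Over all tested genes 37.1% were higher and 41.1% lower. The 6 proximal genes that were higher were Igkv12-38, Igkv6-32, Igkv8-30, Igkv8-27, Igkv3-2 and Igkv3-1. They held 12.7% ± 0.049 of Igkv counts in NSD1B WT and 21.3% ± 0.51 in NSD1B KO. Without Igkv8-30 the proximal block held 46.2% ± 0.20 and 13.0% ± 0.021.

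Neighbours tended to share a direction over long stretches, as the plot of fold changes by gene order shows. Taken in order, the tested genes formed 26 runs of the same call. The longest run held 18 genes that were all higher in NSD1B KO, from Igkv12-98 (starting at 68570763) to Igkv4-77 (ending at 69111432), over 540.67 kb, across the border of the distal and middle blocks. It included genes of families 1, 4, 10, 12, 13 and 19, and the 27 genes within it went from 15.5% ± 0.13 of Igkv counts to 46.1% ± 0.39. Genes of the run outside the naming rule included Igkv12-98 (558, 563, 2037 and 1810 counts), Igkv12-89 (708, 668, 3276 and 3029) and Igkv10-94 (155, 141, 1815 and 1808). The next longest held 17 genes that were all lower, from Igkv6-25 to Igkv3-4 over 456.978 kb, and their stretch went from 31.9% and 32.5% of Igkv counts to 3.50% in both libraries. These 17 were the tested genes of families 3, 6 and 8 that lie between Igkv8-27 and Igkv3-2. Next came a run of 9 lower genes from Igkv4-60 to Igkv5-48, which went from 2.82% ± 0.14 to 0.400% ± 0.014. The runs were described after the calls were seen, and no test was made of their length.

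**Figure D5:**
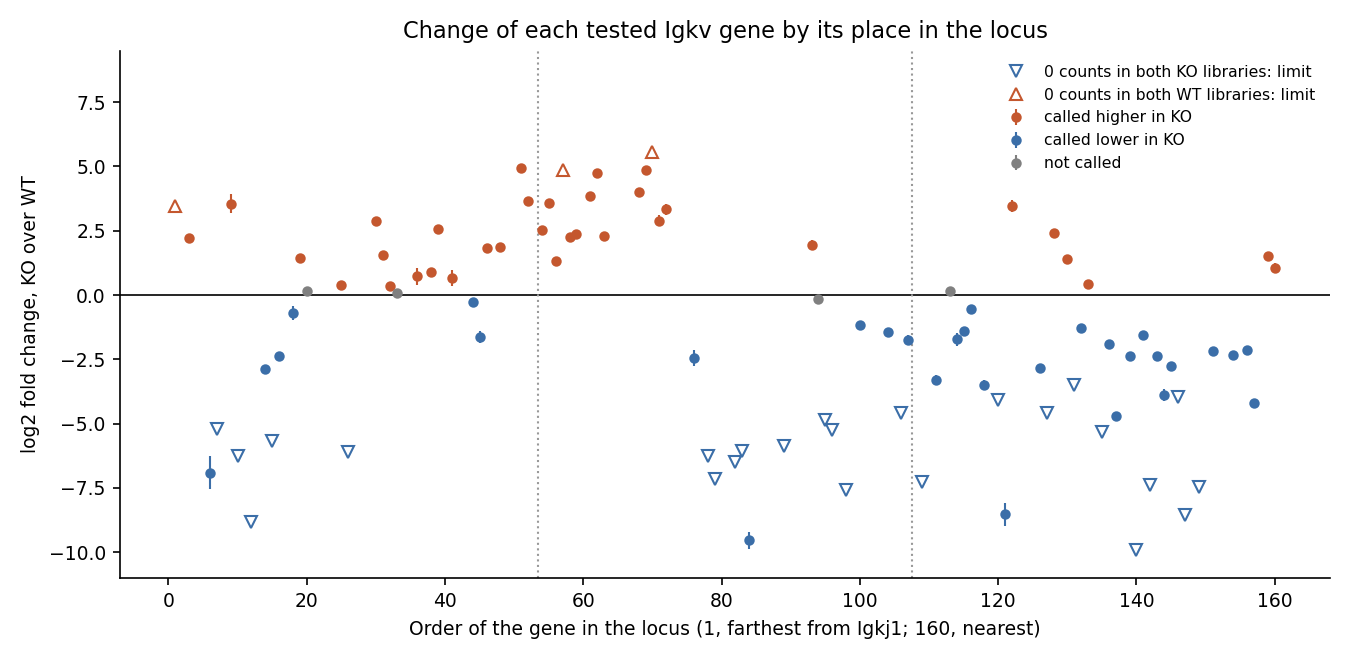
Log2 fold change of NSD1B KO over NSD1B WT of the 95 tested genes by their order in the locus, with SEs, colours for the call, and open triangles for the limit where a genotype had 0 counts. The run of 18 higher genes lies around the first dotted line, and the proximal genes are mostly below 0.

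Shares by strand lay close together. Genes on the strand of the Igkj segments held 34.7% and 34.9% of Igkv counts in NSD1B WT and 32.6% and 32.8% in NSD1B KO. As levels, same strand and opposite strand genes were higher by 0.43 and 0.56 (SEs 0.06). On the share scale neither was called, at -0.09 (adjusted p = 0.373) and 0.05 (adjusted p = 0.655), and the difference in share changed sign without Igkv4-91. Pseudogenes held 0.544% ± 0.013 of Igkv counts in NSD1B WT and 0.439% ± 0.0063 in NSD1B KO. Igkv2-137, annotated as a V gene and the farthest from Igkj1, had 0, 0, 19 and 13 counts, and its exon overlaps that of another annotated gene, Gm42889.

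The other genes of the light chain list were followed in the same fit. Of 27 genes, 20 were tested, 11 were higher and 4 lower, where 37.1% of all tested genes were higher and 41.1% lower. The 7 without a count were Rag1 and Rag2, whose proteins cut the DNA for V-J joining, Dntt, which adds bases at joints, the surrogate light chain genes Igll1, Vpreb1 and Vpreb2, and Iglj2. Igkc, the constant exon of every kappa chain, had 116690 and 134671 counts in NSD1B WT and 175782 and 154422 in NSD1B KO, and was higher by 0.45 (SE 0.08, adjusted p = 1.69e-06). The lambda genes Iglc1, Iglc2, Iglc3, Iglv1, Iglv2 and Iglv3 were all higher, by 0.36 to 0.83, and Iglj1 fell by 0.92. On the share scale 3 genes of the list were called higher, Igkj3, Iglc1 and Vpreb3, and 5 lower, where 26.8% of all tested genes were higher and 55.1% lower.

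The Igkj segments, short exons with 124 to 214 counts in all per library, gave less precise values. Igkj3, whose product is not thought to be used in mouse light chains, had 24 and 14 counts against 76 and 56 (log2 fold change 1.84, SE 0.33). Igkj4 had 16 and 13 counts against 33 and 35, and was higher by 1.28 (adjusted p = 0.00311), a call lost without NSD1B WT replicate 2 (1.14, adjusted p = 0.0753). Igkj1 (33, 44, 44 and 42 counts), Igkj2 (15, 11, 19 and 18) and Igkj5 (44, 42, 39 and 63) were not called, with adjusted p of 0.53, 0.24 and 0.352. In the surface receptor, Ighm fell by 0.41 and Ighd, the other heavy chain of mature B cells, was higher by 0.66. Cd79a, a signal chain of the receptor and the gene (Mb1) that carries the Cre insertion in both genotypes, fell by 1.33. Cd79b, its partner, had a log2 fold change of 0.26 (adjusted p = 0.00213) and stayed under the fold limit. In several alternatives Cd79b lay over that limit, from 0.265 with the size factors of DESeq2 to 0.33 without NSD1B KO replicate 2. Vpreb3, a relative of the surrogate light chain genes, was higher by 2.05 (144, 163, 629 and 593 counts).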

How the data were processed

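For each gene and library the authors deposited a raw count, neither normalized nor scaled by length. Their Methods name alignment to mm10 with Bowtie2. They also give FPKM by Cufflinks, which is not the deposited unit. The counter, its strand setting and its annotation remain not given in the sources used here. Closing lines in the form of htseq-count put 44.3% to 44.6% of reads on no gene and 11.2% to 13.2% as not unique, and these stayed out of library sizes. Leaving out reads that were not unique can lower the counts of V genes with close copies. All 160 Igkv identifiers matched GENCODE M21, the source of positions and of the printed sequences.

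The whole table was fitted by edgeR 4.0.16 (R 4.3.3) with TMM, filterByExpr (minimum 10, total 15) and the quasi-likelihood test, p being adjusted by Benjamini-Hochberg over all tested rows. In further fits Igkv rows were replaced by sums over families, blocks, strands or V totals. No exact permutation test on 1 value can pass 0.05 at 2 against 2. Shares are given per library, and their exact 95% binomial bounds, which cover counting error only, lay at most 0.24 percentage points away for the named genes. The mean chi-square over Igkv genes between libraries of a genotype was 1.69 in NSD1B WT and 2.21 in NSD1B KO, where counting error alone gives about 1. A gene at 0 in a genotype got a limit of 3 counts over the group (0.207 CPM in NSD1B WT, 0.215 CPM in NSD1B KO). Copies were measured over the last 270 nt and by shared windows of 100 nt.

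Genes named by rule were the 10 with the highest mean share, the 5 largest rises and falls in share, the 5 largest fold changes each way at a mean log2 CPM from 3 upwards, 3 genes of B1 antibodies, each family, and the light chain list. Other genes named were chosen after their values were seen. The members and lists were chosen with earlier results of these data known. A further B cell marker is not reported here. The fit was tested on simulated data with 200 changed genes. It recovered 180 of them and made 8 false calls among 11323 genes tested. With so few changed genes, this does not check the error rate where 78.2% of tested genes are called. Alternatives were scaling, filters, DESeq2 1.42.0, limma-voom 3.58.1, libraries left out, a replicate block, length, pseudogenes and single genes left out.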

Additional observations from a re-analysis of the deposited data

How the results depend on the processing

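The Igkv total stayed higher in every alternative run (log2 fold change 0.42 to 0.52, and 0.48 to 0.56 with a library left out). Of 330 alternative values of the log2 fold change of the Igkv genes named by rule, 327 kept direction and call. Most of these genes were named for large changes in the same libraries, so their calls were unlikely to change. The other 3 values reversed on the share scale without being called (Igkv1-110 -0.13, Igkv1-117 -0.090, Igkv8-27 -0.053). The last 2 of these genes also reversed in share without Igkv4-91 (0.063 and 0.17 percentage points). Of 265 for families, 250 kept both, and families 20 and 8 lost a call in 13. On the share scale family 17 was called lower (-0.67), the 1 call gained, and family 8 reversed (-0.22). With a library left out, 34 to 36 Igkv genes were higher and 52 to 54 lower. A filter of 1 CPM in all 4 libraries, which removes genes at 0, left 27 lower. With only genes that share no window, chosen after the values were seen, 24 were higher and 28 lower, of 54 tested. On the share scale 3 genes of the light chain list were higher, same strand and opposite strand genes stood at -0.089 and 0.045, and Igkc (-0.044), Igkj1 (-0.28), Igkj5 (-0.19), Iglc2 (-0.016), Iglc3 (-0.13) and Cd79b (-0.24) reversed. In several other alternatives Cd79b was over the fold limit (0.265 to 0.33). With a library left out, Igkj5 ranged from -0.13 (reversed, without NSD1B KO replicate 2) to 0.65, and Iglj3, not called, from -0.96 (without NSD1B KO replicate 2) to 0.56 (without NSD1B KO replicate 1). Iglj3 was 0.0076 with TMM taken without immunoglobulin genes. The cause of these was not tested. The difference in share between genotypes, in percentage points (7.66 distal, 18.8 middle, -26.4 proximal), was 7.55 to 7.76, 18.5 to 19.1 and -26.8 to -26.1 with a library left out. It was 7.40, 19.5 and -26.9 with counts per exon length, 7.81 for the distal block without pseudogenes, 11.6 distal and 15.01 middle without Igkv4-91, and, in alternatives added after seeing the data, 2.35, 21.3 and -23.7 with no shared windows and 17.6, 19.1 and -36.7 without Igkv8-30 and Igkv4-91. For same strand genes (-2.07) it was -2.38 per exon length, and 0.588 (without Igkv4-91), 0.436 (no shared windows) and 5.06 (without both genes). The inverse Simpson number differed by -10.8, by -10.7 without pseudogenes, -10.5 per exon length and -9.93 without Igkv4-91, where the number of genes for 50% differed by -1.5 in place of -2. Deviations of same-numbered libraries correlated at 0.0774 over all tested genes. With 2 libraries per genotype this cannot show whether libraries of the same number shared a batch or litter. With the replicate block, 35 Igkv genes were higher and 54 lower, and with 2 pairs this says nothing of shared mice. Counts under about 50 over a genotype limit Igkj segments and rarely used V genes.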
